A study of Mus musculus with 6 samples.

Results

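The genes described are 10 markers of cells that have left or are leaving the naive pluripotent state, taken by symbol from the 39017 genes of the deposited count tables, and each symbol matched 1 gene. They fall by role into epiblast markers (Fgf5, Otx2, Pou3f1 and Zic2), primitive streak markers (T, Eomes and Mixl1) and endoderm markers (Gata4, Gata6 and Sox17). PolyA RNA-Seq counts were available for 6 libraries, in 3 groups of 2. They came from the V6.5 line of mouse embryonic stem cells (mESCs) grown with irradiated mouse embryonic fibroblasts, serum and leukaemia inhibiting factor. By the study's methods, harvest followed 2 passages of these feeder cells, worded without saying whether on or off them. The untreated group was a Pol II degron line a homozygous clone picked for strong degradation, with mAID-GFP fused to the C terminus of RPB1 (the Pol II catalytic subunit) and an inducible OsTIR1 cassette at Rosa26. The auxin group was the same line with 500 μM indole-3-acetic acid (auxin) for 6 h, which leads OsTIR1 to target the tagged protein for degradation, and both degron groups had received 1 μg/ml doxycycline for 12 h beforehand. The wild-type group is labelled wild type for Pol II, and the labels do not say whether it carried the OsTIR1 cassette. No doxycycline is named for it specifically. The degron groups were grown from a single clonal line, so a difference from wild-type cells cannot be told apart from a difference of that clone. Nor can it be told apart from an effect of doxycycline or of the OsTIR1 it induces, if wild-type cells received none. The wild-type libraries stand in a table of their own, so the table cannot be told apart from the genotype either.

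As the naive epiblast of the blastocyst matures after implantation, its cells lower the naive network and turn on formative and primed genes, among them Fgf5, a secreted FGF ligand, and the transcription factors Otx2, Pou3f1 (Oct6) and Zic2. At gastrulation cells enter the primitive streak under Wnt, Nodal and BMP signalling, with T (brachyury) and Eomes, both T-box factors, and the homeobox factor Mixl1 among the earliest genes. Gata4, Gata6 and Sox17 drive endoderm, both the primitive endoderm beside the early epiblast and the definitive endoderm of the gastrula. Cultures of mESCs in serum and leukaemia inhibiting factor are known to be mixed, with small numbers of cells that express such genes.

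The libraries held 14094022 to 15358714 counts. Polr2a, which encodes RPB1, had 6568 and 6623 counts in the untreated, 10396 and 10663 in the auxin-treated and 6866 and 7129 in the wild-type libraries. The degron acts on the protein, so these counts do not measure the depletion. All 14 genes of the naive pluripotency list used here were expressed in every group, with 10625 to 13854 counts of Pou5f1 in each library. Pou5f1 and Sox2 on this list are general pluripotency genes and do not by themselves mark the naive state. Retinas are named in the RNA extraction text of the wild-type records. Of 12 retina genes, Crx, Rcvrn and Rpe65 had no count in any library, and the summed level of the list was 2.23 and 2.42 CPM (counts per 1000000 counts of the library) in wild-type and between 3.62 and 4.42 CPM in the degron libraries. Of 12 feeder fibroblast genes, Lum had no count in any degron library. The summed level of the list was 716 to 879 CPM in the degron libraries and 264 and 268 CPM in wild-type cells. Tagln had the most counts of the list in every library, with 5968 to 7595 in the degron and 1242 and 1205 in the wild-type libraries. Col1a1 had 941 and 938 counts in untreated and 962 and 915 in wild-type libraries. The sum is thus weighted to Tagln and does not measure feeder RNA as a whole.

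Promoter windows of 250 bases before to 50 bases after a RefSeq start were at hand for 4 members on GRCm38.p6 (mm10), with 4 windows for Otx2. They are shown for T and Fgf5, the members with the lowest wild-type counts relative to untreated cells, and for Eomes, a T-box gene that was higher there. Capitals mark matches, on either strand, to the TATA box TATAAA, to the T-box core AGGTGT or to a Tcf/Lef site (CTTTG followed by AA, by AT, by TA or by TT), and no match overlapped another.
T, chr17:8434173-8434472, plus strand: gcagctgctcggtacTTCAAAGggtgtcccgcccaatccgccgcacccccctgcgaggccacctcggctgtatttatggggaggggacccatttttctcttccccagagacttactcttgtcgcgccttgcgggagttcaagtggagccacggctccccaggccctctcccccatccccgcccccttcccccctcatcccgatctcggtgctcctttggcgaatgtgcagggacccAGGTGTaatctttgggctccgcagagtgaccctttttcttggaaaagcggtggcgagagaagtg
Fgf5, chr5:98253934-98254233, plus strand: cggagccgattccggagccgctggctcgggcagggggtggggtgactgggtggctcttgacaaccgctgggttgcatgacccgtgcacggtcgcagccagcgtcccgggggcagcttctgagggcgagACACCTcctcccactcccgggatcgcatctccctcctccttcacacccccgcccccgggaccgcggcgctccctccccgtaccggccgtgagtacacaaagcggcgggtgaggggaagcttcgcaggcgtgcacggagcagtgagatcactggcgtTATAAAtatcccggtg
Eomes, chr9:118477939-118478238, plus strand: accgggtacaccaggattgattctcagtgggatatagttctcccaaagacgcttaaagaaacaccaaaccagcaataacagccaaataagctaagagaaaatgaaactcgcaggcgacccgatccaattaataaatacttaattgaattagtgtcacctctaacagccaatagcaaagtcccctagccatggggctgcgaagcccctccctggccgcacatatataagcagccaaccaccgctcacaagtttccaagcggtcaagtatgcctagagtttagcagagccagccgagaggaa

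The T window held 1 T-box core, at base 237 of its 300, and 1 Tcf/Lef site, at base 16. The Fgf5 window held a T-box core at base 129 and the TATA box letters at base 285, which is 34 bases after the start. No match was found in the Eomes window, and 1 of the 4 Otx2 windows held the TATA box letters, 192 bases before its start. Among all 32851 windows of the table, 13.7% held the T-box core, 16.9% a Tcf/Lef site and 13.6% the TATA box, so these matches are common letters and describe the windows only. CpG dinucleotides numbered 29 in the Fgf5, 17 in the T and 10 in the Eomes window and 6 to 16 in the Otx2 windows, compared with a median of 7 over all windows.

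Levels were compared between members as CPM per 1000 bases of annotated exon, with exon lengths from GENCODE vM21 and library totals as the scale. In untreated cells the order ran from Zic2 (6.72 ± 0.169, SD, n = 2), T (6.44 ± 2.05), Pou3f1 (4.63 ± 0.213) and Gata4 (3.54 ± 0.249) down to Eomes (1.19 ± 0.206) and Gata6 (0.649 ± 0.10). Otx2 (0.453 ± 0.0933), Mixl1 (0.392 ± 0.205), Sox17 (0.239 ± 0.149) and Fgf5 (0.152 ± 0.0551) came last, and each of these overlapped the next in the order. Zic2 and T overlapped as well, while all other neighbours in the untreated order were apart by more than their replicates. In wild-type cells Zic2 (6.45 ± 0.450), Pou3f1 (5.26 ± 0.347) and Gata4 (4.45 ± 0.260) led, Otx2 (2.39 ± 0.181) and Eomes (2.32 ± 0.218) followed and overlapped each other, and T was eighth with 0.204 ± 0.0402, overlapping Mixl1 (0.191 ± 0.0217). T thus passed from the most abundant members of the degron cells, where its auxin-treated level of 7.38 ± 1.09 was the highest of the 10, to the least abundant ones in wild-type cells. The panels of CPM by gene show the same values before division by length.

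**Figure D1:**
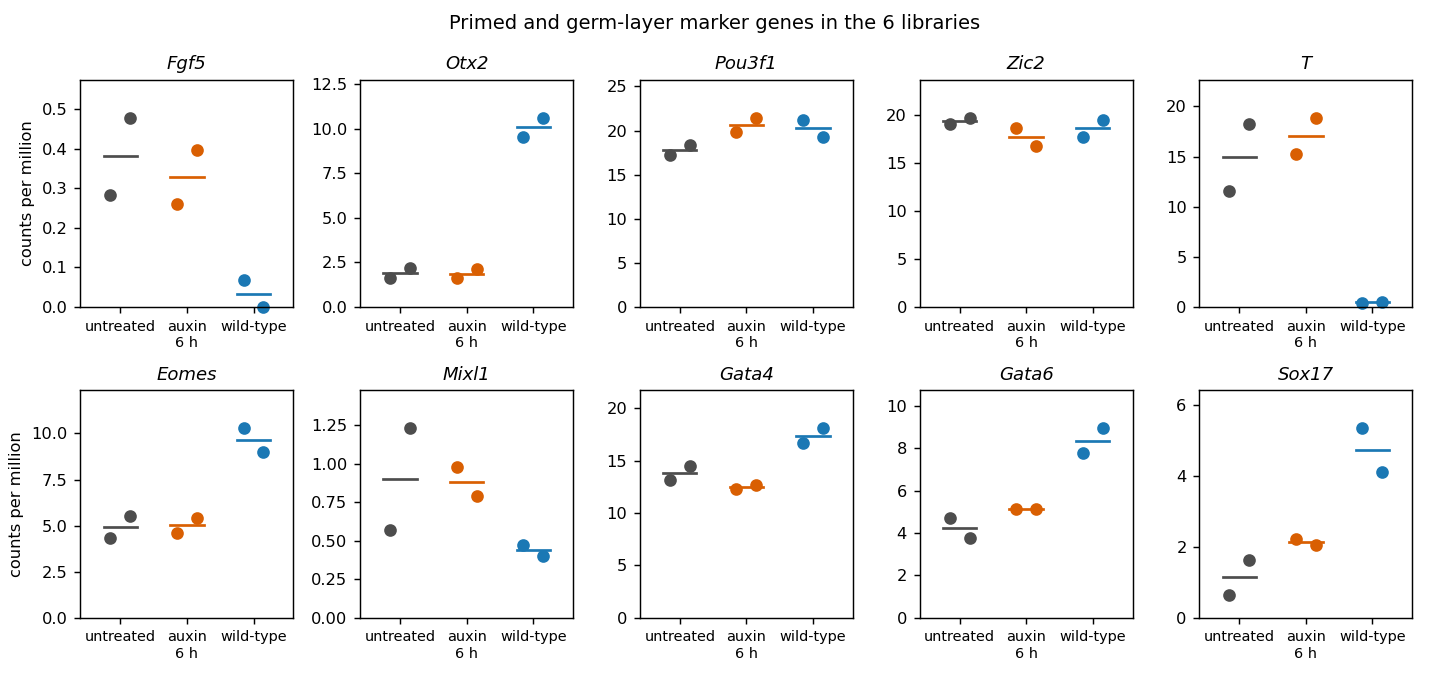
CPM of library total (vertical axes, from 0) for each of the 10 genes in the untreated, auxin 6 h and wild-type libraries; points are single libraries and bars are group means (n = 2). T lay between 11.6 and 18.9 CPM in the 4 degron libraries and at 0.406 and 0.538 CPM in wild-type cells, and Otx2 showed the opposite order, with 1.63 to 2.19 CPM in the degron and 9.54 and 10.6 CPM in the wild-type libraries.

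The auxin comparison asked whether the mature mRNAs of these genes differ 6 h after Pol II degradation begins. None of the 9 members that passed the filter on low counts was called by edgeR's quasi-likelihood test (adjusted p under 0.05), with 0 higher and 0 lower, where 4.20% of the 16128 genes tested were called, 2.56% higher and 1.64% lower. At an unadjusted p under 0.05 there was 1 member, Sox17, beside 20.1% of all genes tested (3245). DESeq2 on the same counts called 0 of 10 members, beside 240 of the 25815 genes with a count. Its counts of called genes after auxin, here and below, are to be read against this low share. The median log2 fold change of the 9 members was 0.0052, beside −0.00038 over all genes tested. The libraries were compared after TMM scaling, which takes the typical gene as unchanged, so a loss shared by most mRNAs would not be seen. In bulk RNA, fewer expressing cells and less mRNA per cell cannot be told apart here or below.

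Among the epiblast markers, Otx2, a homeobox factor of the anterior epiblast, had 23 and 32 counts in untreated and 25 and 32 in auxin-treated cells. These groups overlapped, and Otx2 was at −0.05 (standard error 0.32) on the log2 scale. Pou3f1, a POU factor, had 243 and 269 counts in untreated and 305 and 325 in auxin-treated libraries, and its groups did not overlap. The difference was 0.20 on the log2 scale (standard error 0.11, adjusted p = 0.353 by edgeR). Zic2, a zinc finger factor that acts at enhancers of the primed state, had 268 and 288 counts against 286 and 253, and lay at −0.15 on the log2 scale (standard error 0.11, adjusted p = 0.507 by edgeR). Fgf5 was too low to be tested, with 4 and 7 counts in untreated and 4 and 6 in auxin-treated libraries, a ratio of summed CPM of 0.856 with an exact binomial 95% interval from 0.326 to 2.22 that covers counting error only.

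Among the streak markers, T, whose product brachyury is needed for posterior mesoderm, had 163 and 267 counts in untreated and 235 and 286 in auxin-treated libraries. The groups overlapped, and the difference of 0.18 on the log2 scale (standard error 0.19, adjusted p = 0.659 by edgeR) left a range of −0.20 to 0.55 at 2 standard errors. The value depended on which untreated library was kept, since it was 0.56 and called (adjusted p = 0.00639 by edgeR) without untreated replicate 2, and −0.13 (adjusted p = 0.558) without untreated replicate 1. Eomes, which directs both endoderm and early mesoderm, had 61 and 81 counts in untreated and 71 and 82 after auxin, which left it at 0.0052 on the log2 scale (standard error 0.22). Mixl1, an early streak homeobox gene, had 8 and 18 counts against 15 and 12, with a value of −0.05 on the log2 scale (standard error 0.46), so its range at 2 standard errors, −0.96 to 0.86, was wide.

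Among the endoderm markers, Sox17, an HMG-box factor, stood out with 9 and 24 counts in untreated and 34 and 31 in auxin-treated libraries. Both auxin-treated libraries lay above both untreated ones, and its difference of 0.87 on the log2 scale (standard error 0.39) was the largest of the 9 members tested, but it was not called (adjusted p = 0.236 by edgeR). Without untreated replicate 2 it was 1.72 and called (adjusted p = 0.0241 by edgeR), and without untreated replicate 1 it was 0.34 (adjusted p = 0.635). Gata6, a zinc finger factor at the top of the primitive endoderm programme, had 66 and 55 counts against 79 and 78 (log2 fold change 0.27, standard error 0.21, adjusted p = 0.515 by edgeR). Gata4, which acts after Gata6 in that programme, had 185 and 212 counts against 188 and 192 (log2 fold change −0.17, standard error 0.13, adjusted p = 0.534 by edgeR). After scaling, the groups of 5 of the 9 members (Pou3f1, Zic2, Gata4, Gata6 and Sox17) did not overlap, which is close to the 49.9% of all genes tested.

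The wild-type comparison set the tagged, untreated line beside the cells labelled wild type for Pol II. Of the 8 members tested, 5 were higher in wild-type cells (Otx2, Sox17, Gata6, Eomes and Gata4), 1 was lower (T) and 2 were not called (Pou3f1 and Zic2). Calls were common in this comparison, with 60.6% of 15778 genes called, 29.9% higher and 30.7% lower, so the count of members called is not far from the background. The sizes stood further apart, since the median absolute log2 fold change was 1.03 for the 8 members and 0.43 for all genes tested. The members were chosen with earlier results of these data known, and some have low counts, where fold changes spread more. This gap is therefore a description and not a test. In all, 7 of the 8 members had groups that did not overlap, compared with 81.0% of all genes. The plot of fold changes sets these values beside those after auxin, and both comparisons share the untreated libraries.

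**Figure D2:**
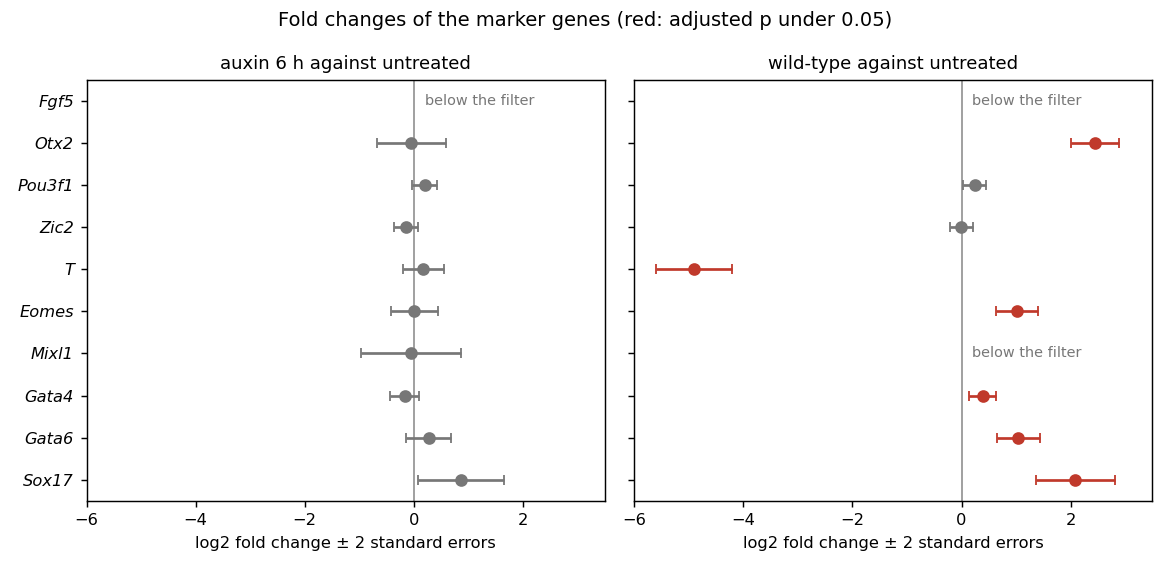
Log2 fold changes (horizontal axes; points) with bars of 2 standard errors for each gene (rows) after 6 h of auxin (left) and in wild-type cells (right), each against the same 2 untreated libraries. Red marks an adjusted p under 0.05 by edgeR, which no gene reached after auxin, while in wild-type cells T lay at −4.90 and the 5 genes that were higher at 0.39 to 2.45.

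T had the largest difference of the members. It lies on chromosome 17 (8434423 to 8442496, plus strand of mm10), with no other annotated gene overlapping it and none of its 100-base stretches found in transcripts of other genes. It had 163 and 267 counts in untreated and 6 and 8 counts in wild-type libraries. All degron libraries were thus far above the wild-type ones, by a log2 fold change of −4.90 in wild-type cells (standard error 0.35, adjusted p = 4.79e-07 by edgeR), which is 29.9-fold lower. Leaving out each library in turn kept it between −5.21 and −4.52. Eomes (chromosome 9, 118478212 to 118486132, plus strand) went the other way, with 61 and 81 counts in untreated and 152 and 134 in wild-type libraries, and was 2.03-fold higher (log2 fold change 1.02, standard error 0.19, adjusted p = 0.000705 by edgeR). Mixl1 (chromosome 1, 180693043 to 180697034, minus strand) was below the filter, with 8 and 18 counts in untreated and 7 and 6 in wild-type cells. Its ratio of summed CPM was 0.484, with an exact binomial 95% interval for counting error from 0.228 to 0.977. With no filter Mixl1 was not called by edgeR (log2 fold change −0.97, adjusted p = 0.248), nor by DESeq2 (adjusted p = 0.448). The T-box genes of the streak thus differed in opposite directions.

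Otx2 was the epiblast marker that was called. It lies on the minus strand of chromosome 14 (48657677 to 48673819), where Otx2os1 overlaps it on the opposite strand and Gm49154 on its own. Otx2 had 23 and 32 counts in untreated and 141 and 158 in wild-type libraries, a 5.46-fold higher level (log2 fold change 2.45, standard error 0.22, adjusted p = 2.82e-06 by edgeR). Otx2os1 had at most 5 counts in any of the 6 libraries, and 1.56% of the 100-base stretches of Otx2 also occur in other genes. Otx2 is also known as a gene of the retina, whose listed markers were at 2.23 and 2.42 CPM in these libraries, as given above. Fgf5 (chromosome 5, 98254184 to 98277030, plus strand) had 4 and 7 counts in untreated and 1 and 0 in wild-type cells. Its summed level was 11.4-fold higher in untreated cells with an exact binomial 95% interval from 1.65 to 489 for counting error, and with no filter edgeR did not call it (log2 fold change −3.16, adjusted p = 0.0842).

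Pou3f1 (chromosome 4, 124656807 to 124660655, plus strand) had 243 and 269 counts in untreated and 313 and 287 in wild-type libraries. The groups did not overlap, and the difference of 0.24 on the log2 scale (standard error 0.11, adjusted p = 0.0753 by edgeR) was not called. With all 6 libraries in the fit, or without untreated replicate 2, it was just called (adjusted p = 0.0497 and 0.0495 by edgeR). Zic2 (chromosome 14, 122475435 to 122479852, plus strand) had 268 and 288 counts against 261 and 290, and its log2 fold change was −0.0023 with a range of −0.22 to 0.21 at 2 standard errors. The 4 epiblast markers therefore held 1 called gene, a pair with small or no measured difference and 1 gene below the floor of 3 counts in wild-type cells.

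The endoderm markers were all called higher in wild-type cells. Sox17 (chromosome 1, 4490931 to 4497354, minus strand) had 9 and 24 counts in untreated and 79 and 61 in wild-type libraries, a 4.25-fold higher level (log2 fold change 2.09, standard error 0.36, adjusted p = 0.000405 by edgeR). Without untreated replicate 2, the log2 fold change of Sox17 was 2.94, and without untreated replicate 1 it was 1.56 and still called. Gata6 on chromosome 18 had 66 and 55 counts against 115 and 133 and was 2.06-fold higher (log2 fold change 1.04, standard error 0.20, adjusted p = 0.00072 by edgeR). Gata4 (chromosome 14, 63198922 to 63271692, minus strand) had 185 and 212 counts against 246 and 269, a smaller difference of 1.31-fold (log2 fold change 0.39, standard error 0.12, adjusted p = 0.0168 by edgeR). The call of Gata4 was lost with DESeq2 (adjusted p = 0.108), without untreated replicate 1 (adjusted p = 0.0691 by edgeR) and without wild-type replicate 2 (adjusted p = 0.119 by edgeR).

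The mitochondrial genome has its own RNA polymerase, and its 13 mRNAs took a share of counts that was 0.341% to 0.441% in the degron libraries and 1.5% and 1.53% in the wild-type libraries. Scaled to these mRNAs, the median log2 fold change of all genes in wild-type cells was −2.10, and on that scale Eomes (−1.06), Gata4 (−1.70) and Gata6 (−1.05) turned negative and Otx2 (0.37) and Sox17 (0.03) were no longer called. Pou3f1 (−1.85) and Zic2 (−2.09) were called lower on it, so that 0 members were called higher and 6 lower. Relative to that median the members kept their places, with T at −4.85, Otx2 at 2.48, Sox17 at 2.13 and Eomes at 1.04. Fold changes in wild-type cells are therefore relative to the typical mRNA.

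T and Sox17 were also the members whose untreated replicates differed by more than counting error. The level of T in untreated replicate 2 was 1.58 times that in replicate 1 (exact binomial 95% interval 1.30 to 1.93), and that of Sox17 was 2.57 times (1.15 to 6.29). Between the auxin-treated replicates, T differed by 1.23 times (1.04 to 1.47) and Sox17 by 0.925 times (0.549 to 1.55). The other members had intervals that included 1 in every group. Among the other genes of the streak list, 7 of the 10 with a mean of at least 10 counts were higher in untreated replicate 2. Their median ratio was 1.06, compared with 6836 of 15544 genes and a median of 0.979 over all genes. By the same measure 7 of 11 neural genes (median 1.15) and 11 of 14 naive genes (1.12) were higher, but only 5 of 15 endoderm genes (0.918). The lean was thus not particular to streak genes, and the endoderm list did not share the direction of Sox17. Feeder fibroblast genes were at 830 CPM in untreated replicate 1 and 716 CPM in replicate 2. Of 10 genes 2 were higher in replicate 2, with a median ratio of 0.947. Tagln, which weighs most in the sum, had 7064 and 5968 counts, while Col1a1 had 941 and 938. The part of feeder cells in this spread was not tested.

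**Figure D3:**
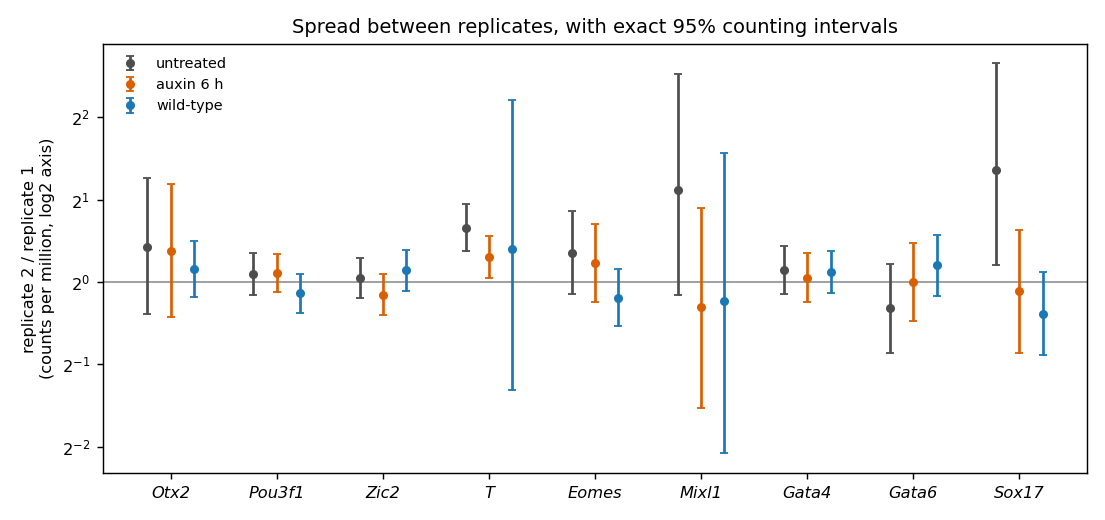
Ratio of CPM in replicate 2 to replicate 1 (vertical axis, log2 scale) for 9 genes in each group, with exact binomial 95% intervals that cover counting error only; Fgf5 is left out for its few counts. The interval lies above 1 for T (1.58) and Sox17 (2.57) in untreated cells and for T (1.23) in auxin-treated cells, and includes 1 elsewhere.

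Further genes of the same lineages were counted from 9 marker lists with the members left out. After auxin, 0 of 11 tested streak genes, 0 of 15 endoderm genes, 0 of 12 mesoderm genes and 0 of 11 neural genes were called by edgeR, and DESeq2 called 0 in each of these lists. At an unadjusted p under 0.05 by edgeR there were 3 streak, 6 endoderm, 1 mesoderm and 3 neural genes, to be read against the 20.1% of all genes that passed this limit. Of 18 formative and primed genes 1 was called, the SOX factor Sox4, which rose by 0.46 on the log2 scale (388 and 400 counts against 553 and 615, adjusted p = 0.0165 by edgeR), and DESeq2 called 0 of this list. Of 8 trophectoderm genes Tfap2c fell by 0.61 (694 and 845 counts against 547 and 537, adjusted p = 0.00499 by edgeR). The naive list showed the most calls, with 8 of 14 genes lower and 0 higher, where 1.64% of all genes were called lower. Its median log2 fold change was −0.49. The 3 with the smallest p were Fgf4 (−0.90), Zfp42 (−0.65) and Sox2 (−0.78), of which Sox2 is not particular to naive cells. DESeq2 called 6 of the list. Col1a2, a collagen gene, was the feeder gene called higher (log2 fold change 0.36, adjusted p = 0.0224 by edgeR), 1 of 10 tested, and DESeq2 called 0 of these.

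In wild-type cells the lists moved in both directions. Their counts of called genes, here and below, are to be read against the 60.6% of all genes called, 29.9% higher and 30.7% lower. Of 12 streak genes 3 were higher and 7 lower, with a median log2 fold change of −0.83 beside −0.01 over all genes. Fgf8 fell from 42 and 91 counts to 8 and 8 (log2 fold change −3.02, standard error 0.45, adjusted p = 0.000139 by edgeR), and Wnt8a, a Wnt ligand of the streak, from 24 and 34 to 6 and 1 (log2 fold change −3.00, adjusted p = 0.000608 by edgeR). Lefty2, a Nodal antagonist, was higher instead, with 362 and 345 counts in untreated and 1209 and 1214 in wild-type libraries (log2 fold change 1.79, adjusted p = 7.06e-09 by edgeR), as was Nodal itself (log2 fold change 0.59). The endoderm factor Foxa2, with 3 and 5 against 14 and 19 counts, was the other streak gene that was higher. Fgf8 and Wnt8a thus stood with T, and Lefty2, Nodal and Foxa2 with Eomes.

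Of 16 endoderm genes 6 were higher and 3 lower. Cubn, an endocytic receptor of visceral endoderm, had 19 and 17 counts in untreated and 575 and 626 in wild-type libraries, 33.4-fold higher (log2 fold change 5.06, standard error 0.15, adjusted p = 7.01e-10 by edgeR). Its partner receptor Lrp2 was lower (log2 fold change −0.79), as were Foxa1 (−1.35) and Sparc (−0.44), while the laminin genes Lama1 (1.37) and Lamb1 (0.74) were higher. Of 18 formative and primed genes 9 were higher and 4 lower, with Utf1 (1.10) and Tcf15 (1.39) among the higher and Cdh2 (−2.56) and Sall2 (−1.49) among the lower by log2 fold change. Among 11 neural genes 2 were higher and 4 lower. The neural factor Neurod1 rose from 16 and 22 to 484 and 540 counts (log2 fold change 4.75, adjusted p = 2.04e-09 by edgeR) and Sox1 from 47 and 59 to 245 and 235 (log2 fold change 2.19), while Pax3 (−2.43) was lower.

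Of 12 mesoderm genes 8 were lower and 1, Pdgfra, which primitive endoderm also expresses, was higher (log2 fold change 1.76, 31 and 30 counts against 101 and 105). Foxf1 (−2.84), Hand1 (−1.69) and Twist1 (−1.11) were among the lower ones. Of 8 trophectoderm genes 3 were higher, Tfap2c most clearly (0.50), and 4 were lower, led by Gata2 (−2.34). The naive list was evenly divided, with 4 higher and 4 lower of 14. Of 10 feeder genes 6 were lower, led by Tagln (−2.40) and Acta2 (−1.51), and 1, Postn, was higher (1.07). Of the genes called, Pdgfra is also on the endoderm list, Twist1 on the feeder list and Hand1 on the trophectoderm list, and Foxa2 is on both the streak and endoderm lists. Such genes are counted in each of their lists. The part of feeder cells in the differences of T and the mesoderm genes was not tested. The plot of the marker lists shows these fold changes gene by gene.

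**Figure D4:**
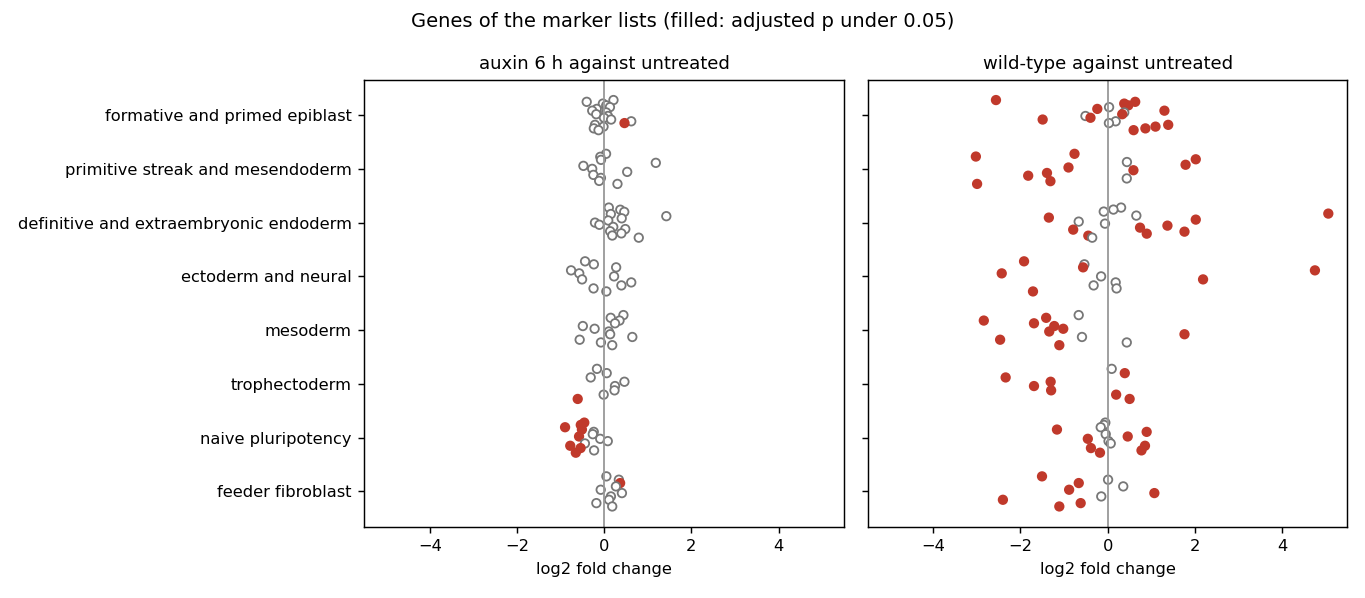
Log2 fold change (horizontal axes) of each tested gene of 8 marker lists (rows; the retina list, with 2 genes tested at most, is left out and the 10 members are not shown) after auxin (left) and in wild-type cells (right). Filled points have an adjusted p under 0.05 by edgeR. After auxin the filled points lie mainly in the naive list, 8 of 14 genes and all lower, while in wild-type cells they lie on both sides of 0 in every list.

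The nearest annotated gene on each side of the members, and the genes overlapping them, came to 26 genes, of which 17 were in the count tables. After auxin 0 of the 7 tested were called by edgeR and 0 by DESeq2, with 1 at an unadjusted p under 0.05. In wild-type cells 0 of 6 were higher and 3 lower, beside 60.6% of all genes called. None of the 3 lay beside T. The T2 gene to its left had at most 8 counts, and Pde10a to its right had 70 and 44 counts in untreated and 34 and 43 in wild-type libraries (log2 fold change −0.56, standard error 0.29, adjusted p = 0.115 by edgeR). Beside Zic2, the non-coding 2610035F20Rik, which starts on the opposite strand 236 bases from it, was lower in wild-type cells (88 and 81 against 31 and 37 counts, log2 fold change −1.30, adjusted p = 0.000468 by edgeR), although Zic2 itself was at a log2 fold change of −0.0023. Neil2, 5066 bases from Gata4 and on the same strand, was lower (−0.53) where Gata4 was higher. Utp11 beside Pou3f1 was lower by −0.37 on the log2 scale. Whether counting used strand is not given in the sources used here, so reads of Pou3f1, Otx2, Eomes, Gata6 and Sox17 cannot be told apart from those of the genes that overlap them on the opposite strand. Those antisense genes had at most 10 counts in any library where the tables hold them.

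By Euclidean distance of log2(CPM + 1), each gene centred on its mean over the 6 libraries, the profiles nearest to T among 12416 genes were those of Trim66 (0.498) and Uba1y (0.570), against a distance of 4.09 from a flat profile. Trim66 had 346 to 442 counts in the degron libraries and 20 and 22 in wild-type cells. Uba1y is a Y-linked gene, with 235 to 274 and 12 and 8 counts. For Otx2 the nearest was Acat2 (0.247), and for Eomes the nearest were Pde1b (0.111) and Nrtn (0.146). Kbtbd11 (0.120) and Dmxl1 (0.132) were nearest to Gata6, Ing5 (0.0767) and Adamts14 (0.0769) to Gata4, Lrrc8b (0.0689) and Epha10 (0.101) to Pou3f1, and Btbd19 (0.0680) and Pex7 (0.0716) to Zic2. No member was the nearest profile of another. Sox17, Mixl1 and Fgf5 had a mean under 50 counts and were not searched. These distances describe 6 libraries in 3 groups of 2 and were not tested.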

How the data were processed

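PolyA RNA-Seq libraries of mESCs were analysed from the count tables. The authors aligned paired reads to mm10 with HISAT2 2.1.0 and counted them on GENCODE genes with Salmon and HTSeq (release and strand setting are not given in the sources used here), and deposited raw, whole-number counts per gene and library, not normalized. Columns of the authors' own DESeq2 comparison (means, fold changes and p-values) were not used, nor were 2 columns of per-sample values labelled as a knockout, which match no sample label used here. Depth was 14094022 to 15358714 counts per library, so genes with under about 10 counts carry a large counting error.

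Each comparison was fitted on its own 4 libraries with edgeR 4.0.16 in R 4.3.3 (filterByExpr with a minimum count of 10, TMM scaling, glmQLFit and glmQLFTest, Benjamini-Hochberg adjustment over all genes tested), with calls at an adjusted p under 0.05. Standard errors were taken as the absolute log2 fold change over the square root of F. The study's methods call the replicates of its sequencing experiments biological, but neither they nor the labels state how the RNA replicates were grown, so p-values measure the spread between these samples, whatever its source. Count ratios carry exact binomial 95% intervals from scipy 1.17.1, and intervals cover counting error only. The floor per library was 3 counts. The procedure was tested on simulated data. Genes were placed with GENCODE vM21, in which 37607 of the 39017 identifiers (96.4%) were found, and promoter windows came from RefSeq on GRCm38.p6.

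The members, the 9 marker lists and the tests were chosen with earlier results of these data known. The genes named are all members, up to 3 called genes per list, direction and comparison with the smallest p, the 2 nearest profiles of members with a mean of at least 50 counts, neighbouring genes and Polr2a, and some genes that this rule names are not reported here. The genes at 0 and Pou5f1 were named after their values were seen. Of the 127 list genes other than members, 126 were matched, all but 1 endoderm gene. Alternatives were DESeq2 1.42.0, its size factors, library totals, mitochondrial scaling, no filter, the replicate block, all 6 libraries in one fit and each library left out.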

Additional observations from a re-analysis of the deposited data

How the results depend on the processing

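In the auxin comparison no member was called under any alternative except the fit without untreated replicate 2, so that leaving out libraries gave 0 to 2 members called (T and Sox17). Of the marker list genes, 11 were called after auxin, 7 with DESeq2, 21 with all 6 libraries in one fit, 4 with no filter, 28 with the replicate block and 7 to 31 with a library left out (7 without auxin replicate 2, 20 without untreated replicate 2 and 31 without untreated replicate 1). Over all genes the auxin calls numbered 677, 55 with no filter, 240 with DESeq2, 219 with mitochondrial scaling, 1930 with the replicate block, 1235 with all 6 libraries and 179 to 2724 with a library left out. In wild-type cells 5 to 7 members and 53 to 92 of the list genes were called, depending on the alternative, beside 6 and 66, but mitochondrial scaling turned the directions. It called 0 members higher and 6 lower (beside 5 and 1, with Pou3f1 and Zic2 gained and Otx2 and Sox17 lost), 2 list genes higher and 90 lower (beside 27 and 39), and 73 genes higher and 15235 lower in all (beside 4713 and 4842). Leaving a library out leaves 1 in its group, which is then assumed to vary like the other group. Same-numbered replicates deviated with a correlation of 0.101 (untreated and auxin) and −0.0403 (untreated and wild-type) across 12416 genes, and no label ties them together, so the numbers are not taken as pairs, and the replicate block changed no member's call. Signs turned for members near 0. With a library left out, the log2 fold changes after auxin ran from −0.26 to 0.19 for Otx2, −0.13 to 0.56 for T, −0.18 to 0.21 for Eomes and −0.51 to 0.63 for Mixl1. Eomes was also −0.0051 with DESeq2, −0.014 with all 6 libraries, −0.15 with mitochondrial scaling and −0.016 with no filter. In wild-type cells Zic2 was 0.0031 with DESeq2 size factors, 0.0045 with DESeq2, 0.0053 with all 6 libraries, 0.0022 with no filter and −0.066 to 0.075 with a library left out. Mitochondrial scaling gave −1.85 for Pou3f1, −2.09 for Zic2, −1.06 for Eomes, −1.70 for Gata4 and −1.05 for Gata6, as its median of all genes was −2.10. Other causes were not tested. At these depths Fgf5 passed the filter in neither comparison, and Mixl1 did not in wild-type cells.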
